A study of Rattus norvegicus with 24 samples.

Results

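Most of the 35 genes described here build cholesterol and fatty acids or control that synthesis. They were chosen by symbol, as 5 regulators, 19 genes of sterol synthesis and 11 genes of fatty acid synthesis. The 19 include Stard4, whose protein carries cholesterol and does not make it. Of these, 34 had a probe on the array, matched through the accession in the array design, and all 34 passed the filter on dim probes, among 21255 genes or unnamed probes that passed (12499 with a symbol). The exception was Srebf1, which encodes SREBP-1, a driver of fatty acid synthesis genes, and has no value here. Each of the 34 probes used was well above background on all 24 arrays.

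Lung RNA came from 24 Fischer-344 rats of both sexes, 7 to 8 weeks old, which inhaled filtered clean air (control group) or hexanal, a 6-carbon aldehyde, at 600 ppm (low-dose), 1000 ppm (middle-dose) or 1500 ppm (high-dose) in a nose-only chamber for 4 h a day on 5 days a week. Each group had 6 rats, 3 males and 3 females. Exposure lasted 5 weeks by the sample labels, which also give the same dose numbers in mg/m3, while the methods of the study state a shorter exposure. Each value is a log2 level, the log2 signal of a probe minus the 75th percentile of log2 signals on that array, so 1 unit is a 2-fold difference, and levels of different probes were not compared. The number of arrays limits the precision, and nothing beyond the rat numbers in the labels says how the RNA samples were prepared.

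The 75th percentile of the arrays was between 1700.8 and 3132.71, and between 70.66% and 81.74% of probes were well above background. Of 10 listed genes of alveolar type II cells, the surfactant-making cells of the lung, 9 were on the array. The log2 of their summed signal, over the 75th percentile, lay between 8.87 and 9.30 in every rat. Such a sum is taken before the log2, so the brightest probes weigh most in it. The macrophage marker Marco was well above background on 1 of 24 arrays, although 6 other macrophage genes were measured on all arrays. Heart muscle genes varied between 1.62 and 6.99 in log2 of summed signal. Group medians were 2.65 in the control group and 3.90, 5.604 and 3.29 at 600, 1000 and 1500 ppm. At an unadjusted limma p-value under 0.05, 3 of 6 heart muscle genes tested, 2 of 3 ciliated cell genes and 2 of 3 club cell genes were higher at 1000 ppm (all genes: 5.33%). By the same threshold, 2 of 9 type II genes (Slc34a2 and Lpcat1) were lower at 1500 ppm (all genes: 3.05%). Their part in the results at those doses was not tested. The same sum for fat cell genes (9 of 11 on the array) lay between 1.41 and 2.27 in 21 rats. It stood apart in 3 rats, at 3.27 in middle-dose male 13 and at 2.95 and 3.58 in high-dose females 36 and 37. Not every fat cell gene followed the sum. In rats 13, 36 and 37, Adipoq was -0.48, -1.08 and 0.23 (controls -7.73 to -5.52), but Lipe was -1.84, -1.96 and -1.68 (controls -2.02 to -0.69). Lep was -5.34, -5.78 and -5.75 (controls -6.72 to -5.31), and Retn was also high in female 38 (-1.49). Rats 13, 36 and 37 were also among the 4 highest rats in heart muscle genes (6.42, 6.25 and 6.99). Counts of members at 1000 and 1500 ppm and between the sexes, and the r of Thrsp with Ucp1, are also given without these 3 rats. The Thrsp differences are given only with them.

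Cholesterol is built from acetyl-CoA through HMG-CoA, mevalonate, isoprenoids, squalene and lanosterol, and the genes of this route are switched on together by SREBP-2 when sterol in the endoplasmic reticulum is low. SCAP carries the SREBP proteins to the Golgi for activation, and INSIG proteins hold SCAP back when sterol is plentiful. In the lung, type II cells make fatty acids for surfactant phospholipids, and macrophages take up and recycle surfactant lipids including cholesterol. SREBP is known to act on promoters together with NF-Y, which binds CCAAT boxes, and Sp1, which binds GC boxes.

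Because Hmgcs1 and a group of sterol genes varied together between rats of the same group, the start site sequences of 4 of them are shown. They cover 250 bases before to 50 bases after the start of the gene in the RefSeq annotation of GRCr8, written 5′ to 3′ on the strand of the gene. Hmgcs1 lies at chr2:53382054-53382353 (plus strand), Idi1 at chr17:66547475-66547774 (minus strand), Msmo1 at chr16:29746863-29747162 (plus strand) and Cyp51 at chr4:30991443-30991742 (plus strand). Capitals mark the letters CCAAT or their complement ATTGG, the GC box letters GGGCGG or their complement CCGCCC, and the letters CACNCCA (core of the sterol regulatory element), searched on both strands.
Hmgcs1: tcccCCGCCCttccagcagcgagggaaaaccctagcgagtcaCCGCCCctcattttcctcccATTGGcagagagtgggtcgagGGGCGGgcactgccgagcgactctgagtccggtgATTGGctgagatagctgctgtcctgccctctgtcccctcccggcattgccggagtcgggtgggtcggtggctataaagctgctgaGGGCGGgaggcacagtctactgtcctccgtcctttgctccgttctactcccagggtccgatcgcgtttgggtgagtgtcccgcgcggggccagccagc
Idi1: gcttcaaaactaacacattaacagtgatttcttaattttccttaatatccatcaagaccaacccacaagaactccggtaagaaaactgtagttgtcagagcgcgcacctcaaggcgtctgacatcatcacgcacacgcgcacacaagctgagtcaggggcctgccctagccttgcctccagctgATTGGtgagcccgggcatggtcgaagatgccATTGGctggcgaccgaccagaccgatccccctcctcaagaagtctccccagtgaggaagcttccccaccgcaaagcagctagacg
Msmo1: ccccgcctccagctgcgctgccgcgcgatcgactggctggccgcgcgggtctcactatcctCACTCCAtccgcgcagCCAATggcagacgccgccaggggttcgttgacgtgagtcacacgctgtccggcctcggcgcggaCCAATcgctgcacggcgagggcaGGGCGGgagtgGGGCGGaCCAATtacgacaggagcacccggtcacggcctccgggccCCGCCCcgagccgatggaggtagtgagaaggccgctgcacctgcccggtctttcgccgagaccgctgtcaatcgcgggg
Cyp51: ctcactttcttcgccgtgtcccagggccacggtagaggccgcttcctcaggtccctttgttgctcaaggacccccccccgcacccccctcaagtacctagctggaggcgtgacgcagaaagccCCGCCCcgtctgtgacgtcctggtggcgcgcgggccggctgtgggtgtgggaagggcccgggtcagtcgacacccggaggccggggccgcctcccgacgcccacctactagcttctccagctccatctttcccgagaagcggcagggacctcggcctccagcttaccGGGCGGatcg

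In these windows Hmgcs1 held 2 CCAAT boxes and 4 GC boxes, Idi1 held 2 CCAAT boxes, Msmo1 held 3 of each and 1 core element, and Cyp51 held 2 GC boxes. Of the 35 listed genes, 28 had a window in the table. CCAAT or its complement was in 20 of 28 windows, against 37.49% of all 33469 windows, and GGGCGG or its complement in 22 of 28, against 33.06%. The E-box CACGTG was in 4 of 28, against 6.42%. The letters TCACNCCAC of the full sterol regulatory element were in 0 of 28, against 1.12%, while its core CACNCCA, which lies within those letters, was in 8 of 28, against 17.15%. Such matches are letters only and do not show binding, and the table also holds windows of genes without known function. For a member only the first window listed for its symbol was used, while the shares over all windows counted every window listed.

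The first question was whether hexanal inhalation changed these genes. With the brightest probe of each gene, no member passed the call of the study (a fold change of at least 1.5 with an unadjusted p-value under 0.05) at any dose, and none had an adjusted p-value under 0.05 in limma with Benjamini-Hochberg adjustment over all genes. The call was passed by 0.616%, 1.63% and 1.22% of all genes at 600, 1000 and 1500 ppm, and the adjusted threshold by 0%, 0.0188% and 0.0047%. The dimmer of the Elovl6 probes passed the call of the study, as lower, at all 3 doses. The lowest adjusted p-value among members was 0.997 at 600 ppm, 0.515 at 1000 ppm and 0.573 at 1500 ppm. At an unadjusted limma p-value under 0.05, 0 members were higher and 0 lower at 600 ppm (all genes: 1.87% higher, 2.47% lower). At 1000 ppm, 3 were higher and 0 lower (all genes: 5.33% and 3.65%). At 1500 ppm, 6 were higher and 0 lower (all genes: 3.9% and 3.05%). All of these were enzymes of sterol synthesis, and no regulator or fatty acid gene was among them. Leaving out control rat 23 brought the count at 1500 ppm to 2, and leaving out control rat 2 or 23 or middle-dose rat 13 or 32 brought that at 1000 ppm to 1. Beside the limma fit, each member was tested by an exact (either direction) permutation test of 6 rats against 6, which cannot go below 0.00216. In whole lung, more cells of a type and more RNA per cell cannot be told apart.

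Sqle, squalene epoxidase, which adds the first oxygen of the sterol route, had the largest difference among sterol genes at 1000 and at 1500 ppm. Its log2 level was 0.22, 0.74 and 1.03 (lowest, median and highest) in the control group and 0.48, 0.86 and 1.02 in the low-dose group. In the middle-dose group it was 0.88, 1.09 and 1.41, and in the high-dose group 0.95, 1.01 and 1.23. All 12 rats of the middle- and high-dose groups were above the median of the controls, but the groups overlapped, since 2 control rats were near 1. The difference from the control group was 0.45 ± 0.13 (SE, 95% interval 0.18 to 0.72, 1.37-fold) at 1000 ppm (exact permutation p = 0.0152, limma adjusted p = 0.515) and 0.38 ± 0.13 (1.30-fold) at 1500 ppm (exact permutation p = 0.0260, limma adjusted p = 0.573). It was 0.16 ± 0.13 at 600 ppm. The comparisons share the same 6 control rats.

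Dhcr7, which encodes the enzyme of the last step to cholesterol in one of its routes, had log2 levels of -2.44, -2.001 and -1.71 in the control group. They were -1.95, -1.84 and -1.503 in the middle-dose group and -1.88, -1.72 and -1.596 in the high-dose group. The lowest rats were controls, the ranges overlapped, and 2 middle-dose and 3 high-dose rats were above every control. The difference was 0.26 ± 0.11 at 1000 ppm (exact permutation p = 0.0758, limma adjusted p = 0.524) and 0.28 ± 0.11 at 1500 ppm (exact permutation p = 0.0238, limma adjusted p = 0.643). Hsd17b7, the 3-keto reductase of sterol demethylation, was -3.32, -2.94 and -2.74 in the control group and -2.83, -2.65 and -2.55 in the high-dose group. Of the 6 high-dose rats, 4 were above every control (difference 0.31 ± 0.12, exact permutation p = 0.00649, limma adjusted p = 0.613).

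The other members at an unadjusted p-value under 0.05 differed by between 0.17 and 0.29. Mvk, mevalonate kinase, was -2.36, -2.26 and -2.17 in the control group and -2.24, -2.16 and -1.87 in the middle-dose group (difference 0.17 ± 0.08, exact permutation p = 0.0411). Idi1, which turns isopentenyl diphosphate into its isomer, was -0.26, -0.01 and 0.31 in the control group and -0.02, 0.32 and 0.54 in the high-dose group (difference 0.29 ± 0.12, exact permutation p = 0.0346). The lowest high-dose rat was thus at the middle of the control range. Mvd, mevalonate diphosphate decarboxylase, was -1.001, -0.88 and -0.66 in the control group and -0.73, -0.70 and -0.38 in the high-dose group (difference 0.23 ± 0.10, exact permutation p = 0.0130). Msmo1, the C4 methylsterol oxidase, was 2.45, 2.72 and 2.86 against 2.52, 2.89 and 3.21 (difference 0.22 ± 0.10, exact permutation p = 0.0952). The limma adjusted p-values of these 4 were between 0.532 and 0.692. By the exact test Dhcr7 at 1000 ppm and Msmo1 at 1500 ppm did not pass 0.05.

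**Figure D1:**
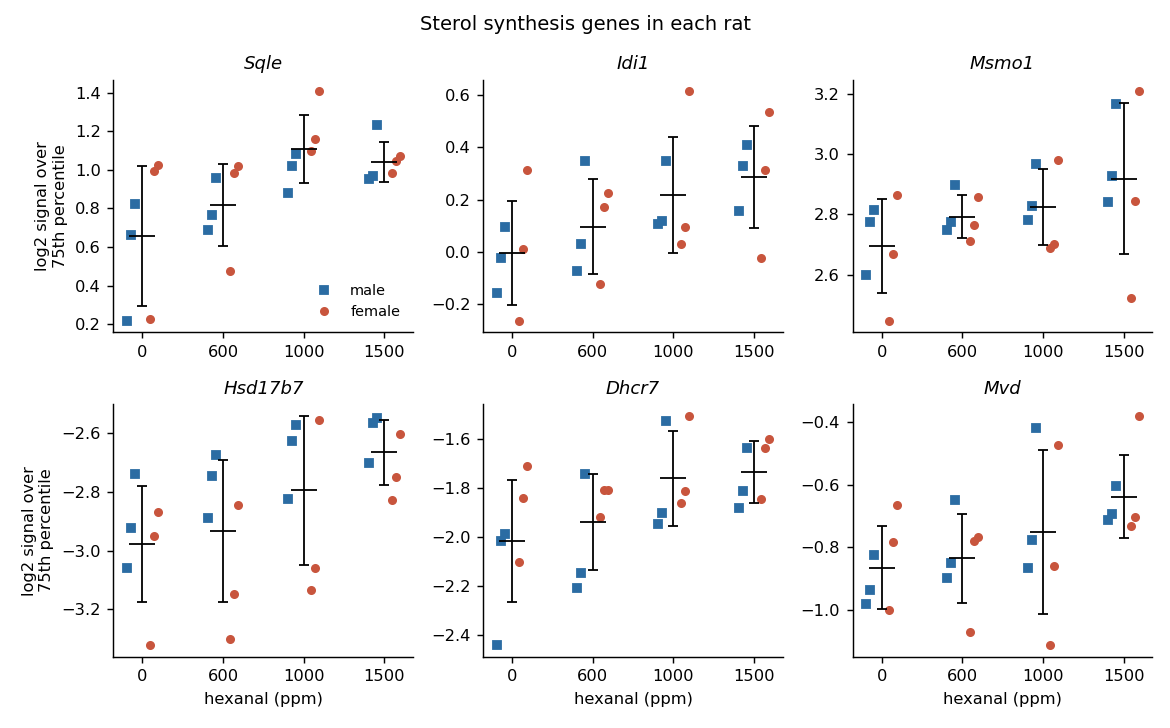
Log2 signal over the 75th percentile of the array for 6 sterol synthesis genes in each of 24 rats, by hexanal dose in ppm (0 is the control group). Squares are males, circles females, and black bars are the mean and SD of 6 rats. The groups overlap in every panel, and for Sqle 3 of the 6 high-dose rats lie above every control.

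For the remaining genes of the route, the 95% interval of each difference included 0. Some of these differences were nevertheless larger than that of Mvk at 1000 ppm (0.17). One was that of Fdps, which makes farnesyl diphosphate, at 1000 ppm (0.21 ± 0.16, exact permutation p = 0.225). Hmgcs1, HMG-CoA synthase at the head of the route, was 1.63, 2.00 and 2.26 in the control group and 2.03, 2.17 and 2.35 in the high-dose group (difference 0.20 ± 0.11, exact permutation p = 0.0671). The largest negative differences among sterol genes were those of Pmvk, phosphomevalonate kinase (-0.18 at 1000 ppm, exact permutation p = 0.156, and -0.17 at 1500 ppm), and of Lss, lanosterol synthase (-0.17 at 1000 ppm, exact permutation p = 0.310). Tm7sf2, a sterol 14-reductase, had the largest positive difference at 600 ppm (0.26 ± 0.17, exact permutation p = 0.206). Over the 19 sterol genes the median difference was 0.05, 0.11 and 0.09 at the 3 doses in rising order, and over all genes it was -0.0014, 0.0046 and 0.013. The 4 measured regulators differed by between -0.08 and 0.25, and the largest of these was Insig1 at 1000 ppm (0.25 ± 0.18, exact permutation p = 0.113).

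Among fatty acid genes, the median difference of 11 was -0.02, 0.06 and -0.03. Fasn, which makes palmitate, was 3.58, 3.76 and 3.94 in the control group and 3.26, 3.59 and 3.90 in the high-dose group (difference -0.15 ± 0.16, exact permutation p = 0.247). Acly, which supplies cytosolic acetyl-CoA, differed by -0.11 ± 0.09 at 1500 ppm. Fads1, the delta-5 desaturase, and Elovl6, which lengthens palmitate, differed by -0.24 ± 0.16 and -0.20 ± 0.21 at 600 ppm, and the elongase gene Elovl5 by 0.17 ± 0.13. Scd, the delta-9 desaturase, was within 0.11 of the control mean at each dose. A second, dimmer probe of Elovl6, measured above background on 22 arrays, gave other values from the brighter one (r = 0.12 between them). Its differences were -1.09, -1.16 and -1.37 at 600, 1000 and 1500 ppm (lowest limma adjusted p = 0.528). At each dose this probe thus passed the call of the study, being lower by more than 1.5-fold with an unadjusted limma p-value under 0.05, while the brighter probe did not at any dose.

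**Figure D2:**
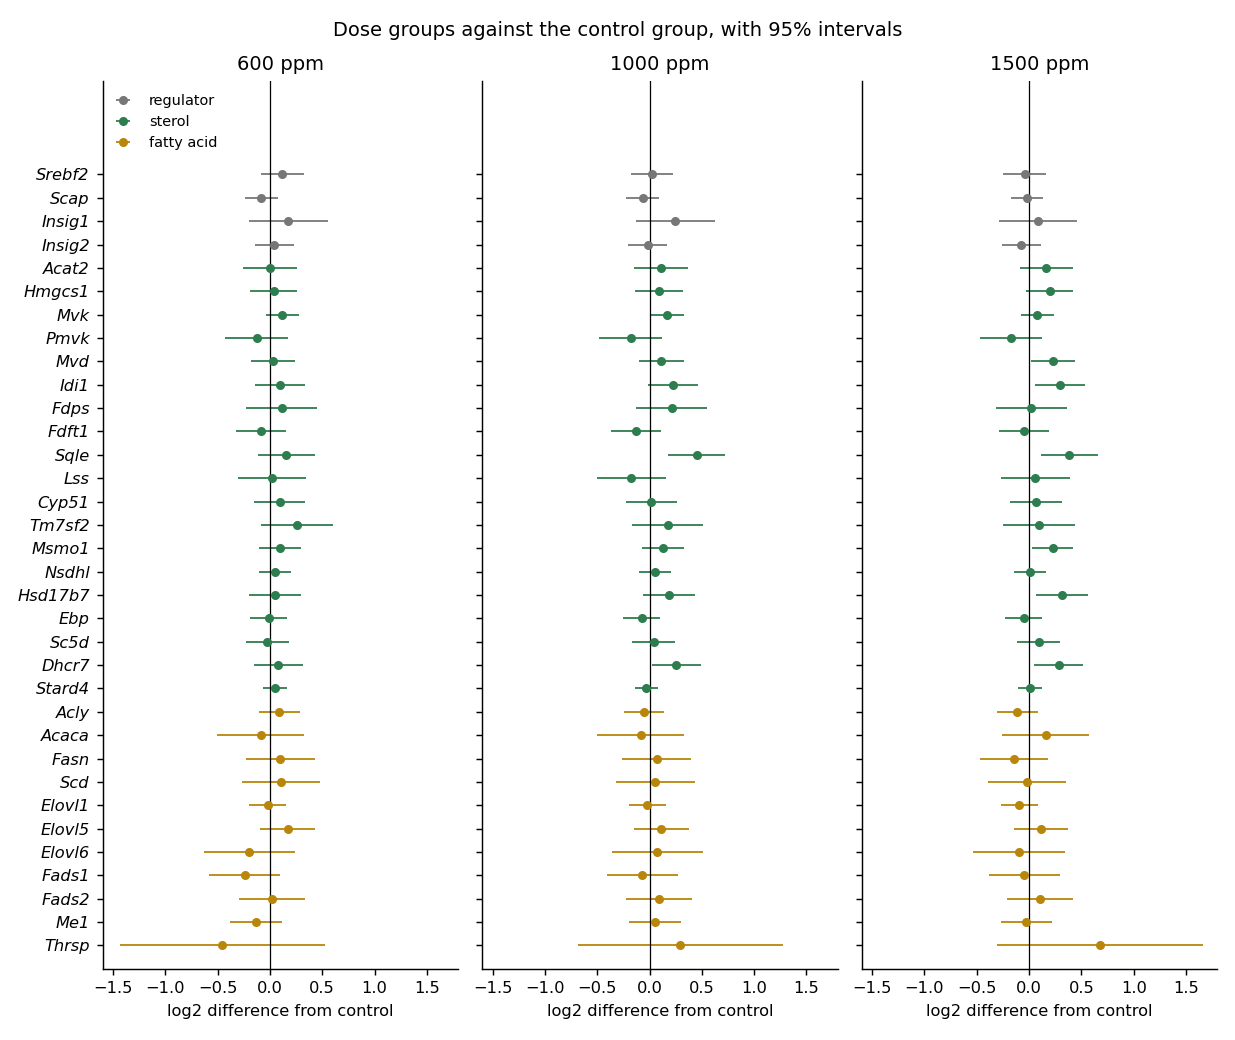
Log2 difference of each dose group from the control group for 34 genes, in the order of regulators, sterol synthesis and fatty acid synthesis. Points are limma estimates and lines their 95% intervals. Intervals that leave 0 out are those of 3 sterol genes at 1000 ppm and 6 at 1500 ppm, and the interval of Thrsp is the widest at each dose.

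Thrsp, or Spot 14, a protein of fat-forming tissues that promotes lipid synthesis, had the largest difference at 1500 ppm (0.68 ± 0.47, exact permutation p = 0.251) and the largest negative one at 600 ppm (-0.46 ± 0.47, exact permutation p = 0.190). Its log2 level was -4.75, -4.46 and -2.88 in the control group, -4.39, -4.30 and -2.17 in the middle-dose group and -4.57, -3.98 and -1.79 in the high-dose group. The 3 highest rats were 13, 36 and 37, the same rats in which the sum of fat cell genes stood apart. Ucp1, the uncoupling protein of brown fat, was -1.21, -0.71 and -1.83 in these 3 rats and between -7.01 and -5.46 in the other 21. Over all 24 rats Thrsp and Ucp1 had r = 0.84 and rho = 0.29, and over the 21 other rats r = 0.0041. Ucp1 was well above background on only 14 of 24 arrays, so many of the values in those 21 rats lie near the floor. Ucp1 had the highest r with Thrsp of 9 fat cell genes, and the others ranged from -0.0040 (Lipe, hormone-sensitive lipase) and 0.14 (Lep, leptin) to 0.73 (Cidea). At an unadjusted limma p-value under 0.05, 2 of the 9 were higher and Lipe was lower at both 1000 and 1500 ppm. Over all genes, 5.33% were higher and 3.65% lower at 1000 ppm, and 3.9% and 3.05% at 1500 ppm. Without rats 13, 36 and 37, the count of members higher at an unadjusted p-value under 0.05 was 1 at 1000 ppm (Sqle) and 5 at 1500 ppm. The part of fat cells in the dose result was not tested.

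**Figure D3:**
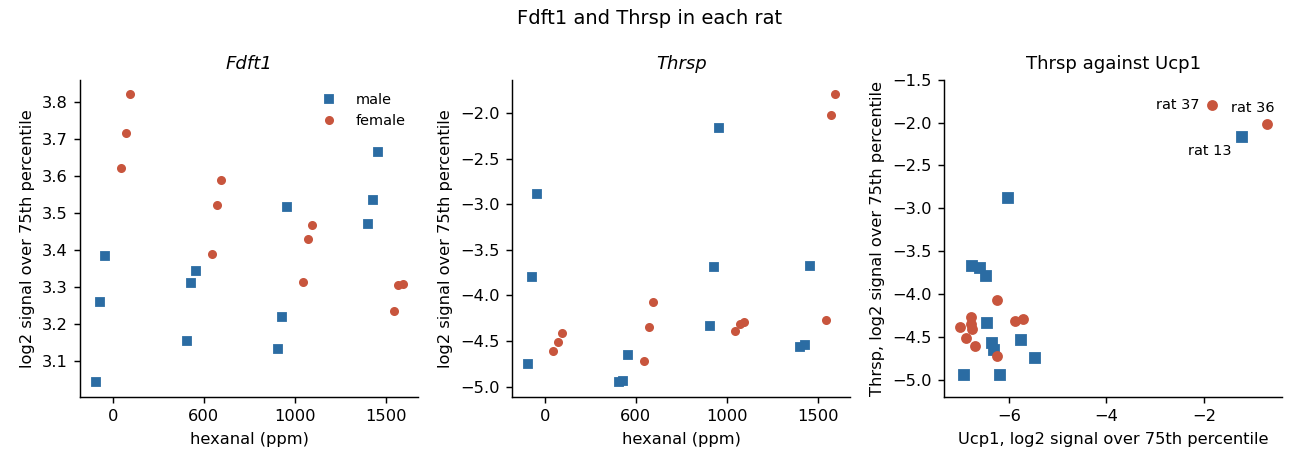
Left and middle, log2 signal over the 75th percentile of the array for Fdft1 and Thrsp by hexanal dose in ppm (squares are males, circles females, 3 rats of each sex a dose). Right, Thrsp against Ucp1 in 24 rats, both as log2 signal over the 75th percentile. Fdft1 of females and males does not overlap in the control group or at 1500 ppm, with the sexes in opposite order, and rats 13, 36 and 37 stand apart for both Thrsp and Ucp1.

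No slide held both control and middle- or high-dose rats, and with the slide as a fixed block 0 members were higher at an unadjusted p-value under 0.05 at either dose. Sqle then differed by 0.17 ± 0.25 (SE) at 1000 ppm and 0.12 ± 0.31 at 1500 ppm, Idi1 by -0.0033 ± 0.28 and Hsd17b7 by 0.10 ± 0.25 at 1500 ppm. Circadian clock genes also differed at the high dose, with both sexes pooled. At 1500 ppm, 6 of 12 measured were higher and 1 was lower at an unadjusted limma p-value under 0.05 (all genes: 3.9% and 3.05%), among them Dbp (2.06 ± 0.61), Nr1d1 (1.53 ± 0.56) and Npas2 (-0.94 ± 0.22), and their part in the sterol gene values was not tested. The count was 0 at 600 ppm and 1 at 1000 ppm, and the lowest adjusted p-value at any dose was 0.182. With the slide as a fixed block 0 clock genes were higher or lower at 1500 ppm (median difference -0.09). The effect at 1500 ppm in females minus that in males was between -3.73 and 1.07. It had an adjusted limma p-value under 0.05 for 3 of the 12 (all genes: 5.01%).

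Other genes of sterol and fatty acid handling were counted from lists. Of 25 further genes of sterol enzymes, uptake and transport, 2 were higher and 0 lower at 600 ppm at an unadjusted p-value under 0.05 (all genes: 1.87% and 2.47%). The 1000 ppm group had 1 higher and 1 lower (all genes: 5.33% and 3.65%), and the 1500 ppm group 1 higher and 2 lower (all genes: 3.9% and 3.05%). Ch25h, which makes the sterol regulator 25-hydroxycholesterol, passed the call of the study. Its log2 level was -0.63 ± 0.82 (SD, n = 6) in the control group, -1.35 ± 0.30 at 1000 ppm and -1.55 ± 0.26 at 1500 ppm. The difference was -0.72 ± 0.26 (SE) at 1000 ppm (limma adjusted p = 0.515) and -0.91 ± 0.26 at 1500 ppm (limma adjusted p = 0.427). Of 10 genes of SREBP processing and sterol-regulated protein turnover and 18 further enzymes of fatty acid synthesis and elongation, 0 passed at any dose in either direction. Of 23 genes of fatty acid activation and glycerolipid synthesis, 1 was lower at 1500 ppm and none was higher.

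The second question was whether females and males differed, over all 4 groups. At a limma adjusted p-value under 0.05, 8 members were lower in females and 1 was higher, while 9.88% of all genes were lower and 16.7% higher. With the slide as a random block, which allows for the fact that each slide held 1 sex, 4 members were lower and 1 higher (all genes: 5.05% and 9.79%). The 5 genes that passed both ways were Insig1, Cyp51, Tm7sf2, Fasn and Elovl6. The slides of a sex were 3, so sex and slide are separated only by that number of slides.

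Insig1, which holds SCAP in the endoplasmic reticulum, was 0.41, 1.07 and 1.15 (lowest, median and highest log2 level) in 12 males and 0.10, 0.64 and 0.99 in 12 females. Most males were near the top of the common range, and the ranges overlapped. The difference was -0.41 ± 0.09 (adjusted p = 0.0039, with the random block 0.02), and females were lower in all 4 groups. Tm7sf2 was -2.90, -2.73 and -2.42 in males and -3.53, -3.09 and -2.57 in females (-0.37 ± 0.09, adjusted p = 0.00411, with the random block 0.0207). Its difference was -0.67 in the control group and between -0.31 and -0.22 in the dose groups. Cyp51, which removes the 14-methyl group of lanosterol, differed by -0.22 ± 0.06 (adjusted p = 0.0132, with the random block 0.0487), and females were lower in 3 of 4 groups.

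Fasn was 3.58, 3.86 and 4.27 in males and 3.24, 3.58 and 3.94 in females (-0.34 ± 0.08, adjusted p = 0.00482, with the random block 0.0204). In the control group its difference was 0.01, and in the dose groups it was between -0.56 and -0.34. Elovl6 was the member higher in females, at -3.15, -2.67 and -2.15 in males and -2.55, -2.20 and -1.69 in females (0.51 ± 0.09, 1.43-fold, adjusted p = 0.000684, with the random block 0.00532). Females were higher in all 4 groups, with 0.86 in the control group and 0.11 at 1000 ppm. The second Elovl6 probe had a difference of 0.15 (adjusted p = 0.79). Srebf2, Insig2, Fdps and Nsdhl were lower in females, with differences between -0.33 and -0.13 and adjusted p-values between 0.0151 and 0.047, which did not pass with the random block (0.0558 to 0.128). In 24 fits that each left out a rat, Srebf2 and Nsdhl stayed under an adjusted limma p-value of 0.05 in only 7 each. Insig2 and Fdps did so in all 24. Without rats 13, 36 and 37, 3 members were lower (Insig1, Tm7sf2 and Fasn) and 1 was higher.

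**Figure D4:**
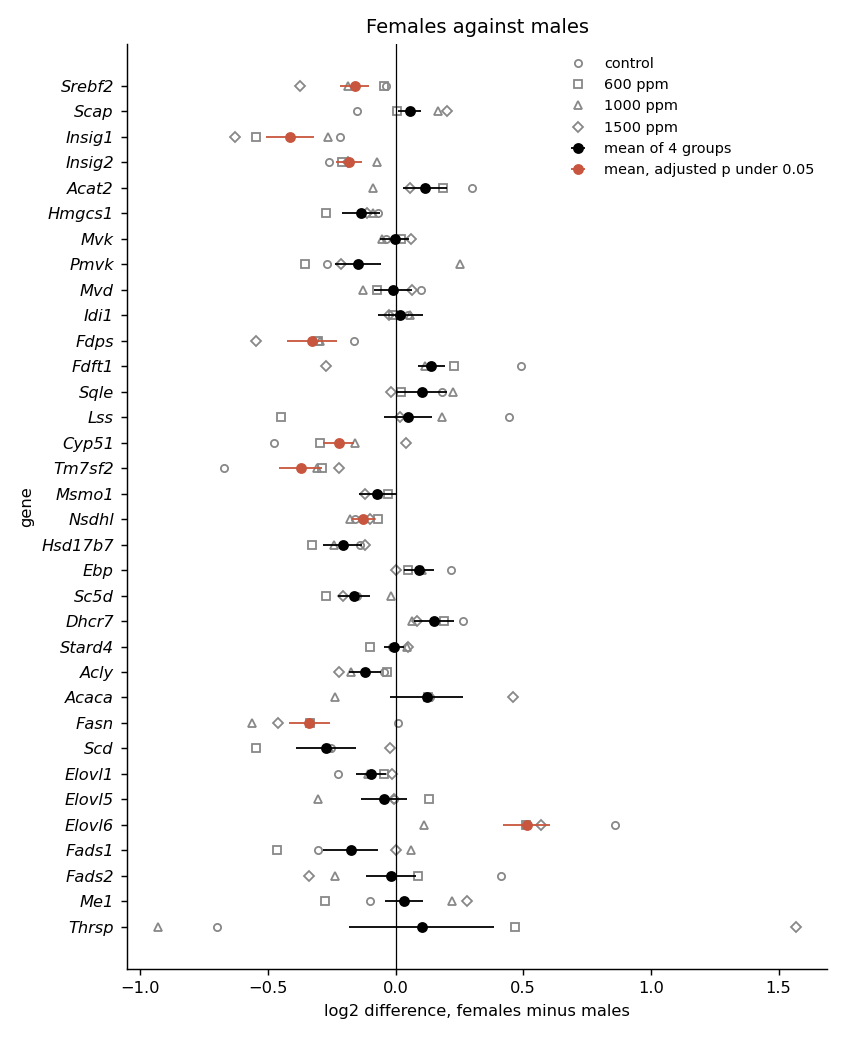
Log2 difference of females from males for 34 genes. Grey open symbols are the differences within the control, 600, 1000 and 1500 ppm groups (3 rats of each sex), and filled circles their mean with its SE, in red where the limma adjusted p-value is under 0.05 (8 genes lower and 1 higher in females).

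The third question was whether the sexes responded alike. The difference between the dose effect in females and in males passed an adjusted limma p-value under 0.05 for 0 members at 600 and 1000 ppm (all genes: 0% and 0%) and for 1 member at 1500 ppm (all genes: 5.01%). That gene was Fdft1, squalene synthase, which commits farnesyl diphosphate to sterols. In females, its log2 level was 3.62, 3.72 and 3.82 in the control group, 3.39, 3.52 and 3.59 at 600 ppm, then 3.32, 3.43 and 3.47 in the middle-dose group, and 3.24, 3.31 and 3.31 in the high-dose group. In males it was 3.04, 3.26 and 3.38, then 3.15, 3.31 and 3.34, then 3.13, 3.22 and 3.52, and 3.47, 3.54 and 3.67 at 1500 ppm. Females at every dose were below every control female, and high-dose males were above every control male. At 1500 ppm the effect was -0.43 in females (adjusted p = 0.0416) and 0.33 in males (adjusted p = 0.0993), a difference of -0.76 ± 0.15 (adjusted p = 0.00595). Over both sexes together the effect was -0.05 ± 0.12. With the slide as a fixed block, the difference between the sexes was 0.02 ± 0.29.

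At an unadjusted limma p-value under 0.05, the effects of 6 members differed between the sexes at 1500 ppm, while 20.1% of all genes did. These were Fdft1, Scap, Cyp51, Fasn, Fads2 and Thrsp, and all but Fdft1 had adjusted p-values of 0.096 or above. For Thrsp the difference was 2.26 ± 0.81 (adjusted p = 0.114), with females at -4.27, -2.02 and -1.79, and the last 2 values are those of rats 36 and 37. Fads2, the delta-6 desaturase, had an effect of 0.48 in males and -0.27 in females (adjusted p = 0.121). At 600 ppm the member with the lowest p-value was Lss, with a difference of -0.89 ± 0.27 (limma adjusted p = 0.885), and that of Thrsp was larger in size (1.17 ± 0.81).

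The members were also compared in how they varied between rats of the same group. The mean of the 8 sex and dose groups was taken off each gene, and the rest was correlated over 24 rats, as a description of arrays that share slides and scaling. Hmgcs1 was set against 21078 genes. The gene closest to it was Idi1 (r = 0.90, rho = 0.91), and the sterol genes Msmo1, Cyp51, Hsd17b7, Dhcr7 and Sqle ranked 4 to 8 (r = 0.79, 0.78, 0.78, 0.77 and 0.77; rho = 0.87, 0.71, 0.76, 0.81 and 0.79). Hmgcs1 had r over 0.5 with 9 of 33 other members, all of them sterol genes, and with 1.43% of all genes. By 100000 permutations within the groups, the p-value of Idi1 and of Msmo1 was 3e-05, and the lowest adjusted p-value over all genes was 0.316, so 0 genes passed 0.05. With the slide also taken off, r was 0.90, 0.81, 0.76, 0.74, 0.82 and 0.79 for the 6 genes in the same order. Without rats 21 and 32, the farthest from the median in Hmgcs1, it was 0.86, 0.75, 0.66, 0.70, 0.75 and 0.75. The group means taken off there still included rats 21 and 32, so these values do not fully remove their influence.

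Insig1, a known SREBP target, had r = 0.35 with Hmgcs1. The macrophage gene Msr1 ranked 3 (r = 0.82, rho = 0.62). The summed level of 7 macrophage genes had r = 0.29 and that of alveolar type II genes r = 0.14. The macrophage sum includes Msr1 and the dim Marco and weighs the brightest probes most. The part of macrophages in these correlations was not tested. Not all genes of the route varied with Hmgcs1. Fdft1 (r = -0.12), Lss (0.09), Pmvk (0.10), Ebp (0.11) and Mvk (0.19) did so weakly, and for Fdft1 r was -0.56 with the slide taken off. The fatty acid genes had r between -0.37 (Fads2) and 0.33 (Scd). Over the pairs, the median r was 0.32 for 171 sterol pairs, -0.09 for 55 fatty acid pairs, 0.06 for 209 mixed pairs and 0.01 for all pairs of genes.

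**Figure D5:**
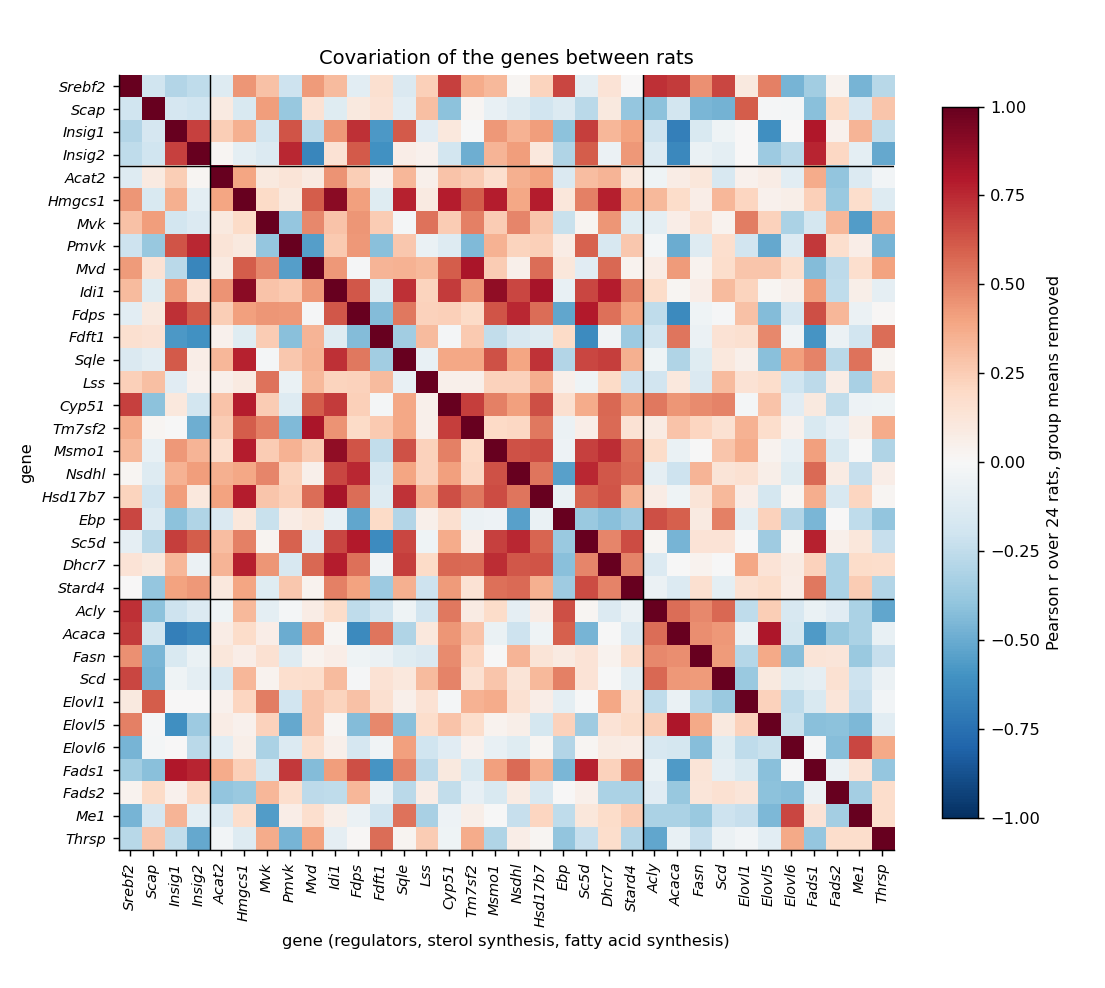
Pearson correlation of each pair of 34 genes over 24 rats after the mean of each sex and dose group was taken off, red for positive and blue for negative. Black lines part regulators, sterol synthesis and fatty acid synthesis genes. The rows of Hmgcs1, Idi1, Sqle, Cyp51, Msmo1, Hsd17b7 and Dhcr7 are red where they cross (r between 0.39 and 0.90), and most fatty acid genes are pale against them.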

How the data were processed

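Lung RNA was measured on 24 one-colour Agilent arrays (6 slides of 4, 1 sex a slide). The authors' deposited intensities come from Feature Extraction 11.5.1.1, per the file headers, which subtracted background after a spatial fit and applied multiplicative detrending within an array but did not scale between arrays. Here each array was scaled by subtracting the 75th percentile of its log2 signals. Groups and sex are those of the labels. The filter kept 23616 probes that the software marked above background on 5 or more arrays in some group of 6, with the brightest probe for a gene, named by accession through a RefSeq table of GRCr8, which also gave the start site sequences. The array design names the build rn4.

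Each dose was compared with control by limma 3.58.1 (R 4.3.3) on all arrays, with the call of the study (1.5-fold, unadjusted p-value under 0.05). Sex and its difference by dose were fitted on 8 groups. P-values were Benjamini-Hochberg adjusted over all genes. Fits were tested on simulated data. The members and lists were chosen with earlier results of these data known. Members named are those at p under 0.05 at any dose, the 3 largest rises and falls at each dose and the 6 largest sex differences. Other members were named after their values were seen. Alternatives were normexp background correction (offset 50), 3 other scalings, 2 other filters, the mean of probes, the methods' t-test, smaller fits, sex or slide in the fit, array weights, each sex alone and each rat left out.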

Additional observations from a re-analysis of the deposited data

Results flagged for a closer look

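Of 136 groups of 6 rats (34 genes in 4 groups), 6 held a rat far from the others, as a gap over the range of the group above 0.625. Chance gives about 1 in 20 groups. Rats 26, 36 and 13 each gave 2 of the 6. In the low-dose group female 26 was lowest for Pmvk (-0.78, next -0.11, gap over range 0.699) and for Fads1 (-1.09, next -0.40, gap over range 0.680). In the high-dose group female 36 was lowest for Insig2 (-2.56, next -2.25, gap over range 0.675) and highest for Mvd (-0.38, next -0.60, gap over range 0.637). In the middle-dose group male 13 was highest for Thrsp (-2.17, next -3.69, gap over range 0.687) and for Elovl1 (4.32, next 4.01, gap over range 0.644). Rats 13 and 36 were among the 3 with a high sum of fat cell genes, and rat 26 was not (log2 of summed signal 1.68).

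The dose effect on Fdft1 at 1500 ppm differed between the sexes by -0.76 (females minus males, limma adjusted p = 0.00595), with no overlap of high-dose and control rats in either sex. The difference remained under 0.05 in each of the 24 fits that left out a rat (highest adjusted p = 0.0205), and with the slide as a fixed block it was 0.02 (limma adjusted p = 0.985).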

How the results depend on the processing

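At 600 ppm, 0 members were higher, and 1 was with sex as a covariate, with array weights, in females only and without control rat 1, while 2 were in males only. The lower count of 0 became 1 with the mean of the probes of a gene and with the slide as a fixed block, and 2 in females only. At 1000 ppm, the 3 higher became 1 with control and 1 dose alone, with array weights and without rats 13, 36 and 37 (chosen after seeing the data), and 0 with the slide as a fixed block and in females only. Leaving out each rat gave 1 (without control rat 2 or 23 or middle-dose rat 13 or 32) to 5 (without middle-dose rat 31). The lower count of 0 became 1 with the slide as a fixed block, array weights, males only and females only. At 1500 ppm, the 6 higher became 0 with the authors' table without scaling and with the slide as a fixed block, 3 with the slide as a random block and 2 in females only (Cyp51 and Thrsp, neither among the 6), and leaving out a rat gave 2 (without control rat 23) to 7 (without control rat 21). The lower count of 0 became 1 with the mean of probes and with array weights, and 3 in females only. The count past 1.5-fold became 1 with the mean of probes at 600 and at 1500 ppm and 1 in females only at 1500 ppm.

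The sterol median was -0.068 at 1000 ppm with the slide as a fixed block and 0.22 at 1500 ppm in males only. The fatty acid median at 1000 ppm was -0.067 with normexp, 0.16 with the authors' table and -0.037 in females only, and 0.094 at 1500 ppm in females only. With normexp the median of all genes shifted by -0.12 at 1000 ppm, and with the authors' table by 0.11. Mvk at 1000 ppm turned to -0.10 with normexp, Idi1 at 1500 ppm to -0.0033 and the difference between the sexes for Fdft1 to 0.015 with the slide as a fixed block. Of the members at an unadjusted p-value under 0.05, only Sqle stayed under it at both doses in each of the 24 fits that left out a rat. Of the members lower in females, 8 became 3 with normexp and without rats 13, 36 and 37, and 4 with the slide as a random block. The 1 higher became 2 with quantile normalization, 0 with the mean of probes, and up to 3 without control rat 2. The 1 member whose dose effect differed between the sexes at 1500 ppm became 0 with the slide as a fixed block and 2 without low-dose rat 8, middle-dose rat 32 or high-dose rat 38. The median r of Hmgcs1 with 6 sterol genes, 0.78, was 0.91 with the authors' table. The causes were not tested, and the other alternatives moved these counts by no more than 1.5 times. No paired analysis was possible because the rat numbers are not shared between groups.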

Other observations

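Beside the genes that varied with Hmgcs1, other members varied together between rats of the same group, again as a description over 24 rats. The pairs given here were picked by their values from 561 pairs of members. Of those pairs 15.51% had r over 0.5, against 7.27% of all pairs of genes. Insig1 and Insig2, the anchors of SCAP, varied with Fads1 (r = 0.80 and 0.76), and Insig2 with Pmvk (r = 0.76). Without rats 26 and 36 these were 0.65, 0.59 and 0.61. Fdps, which makes farnesyl diphosphate, Sc5d, the C5 desaturase, and Nsdhl, the decarboxylating dehydrogenase, had r between 0.75 and 0.79 with each other. Srebf2 had r = 0.73 with Acly and 0.70 with Acaca, the carboxylase that makes malonyl-CoA, and Acaca had r = 0.81 with Elovl5. Insig1 and Acaca varied in opposite directions (r = -0.68, with the slide taken off -0.60).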
